A study of Mus musculus with 2 samples.

Results

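The receptors for interleukin-2 and its sister cytokines are described here through 10 genes, chosen by name: Il2ra, Il2rb, Il2rg, Il4ra, Il7r, Il9r, Il15ra, Il21r, Jak1 and Jak3. All 10 were matched by Ensembl identifier among the 41592 genes of the table, and all 10 passed a filter of a mean of at least 1 FPKM, which are fragment counts divided by gene length and library total. RNA-seq was done on CD4+ T cells of 6- to 8-week-old C57BL/6 mice, taken from spleen and lymph node, with the genotype Foxp3 dCNS1-Cre-R26-YFP. In these mice Cre is driven from Foxp3 regulatory DNA lacking the conserved element CNS1, and YFP at Rosa26 stays on in any cell, and its descendants, once Cre has recombined it. Both sorted populations were YFP-positive: 1 was labelled Thy1.1-YFP+ and the other Thy1.1+YFP+. The series sets thymus-derived regulatory T (Treg) cells against precursors of exFoxp3 cells, but its design text gives both the same pair of markers, so the populations keep their sort labels here. The labels do not give the number of animals or what drives Thy1.1, and the columns were assigned by reading N and P in their names as negative and positive for Thy1.1.

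With 1 library per population, the spread between replicates is unknown for every value and no p-value is given. Counted reads numbered 18536339 for Thy1.1- cells and 18600581 for Thy1.1+ cells. Intervals are 95% counting intervals from the reads behind each value, where reads are the fewest whole reads the values allow. They cover counting error only, not variation between animals or preparations. A gene is called past 2-fold where log2(FPKM + 1) differed by at least 1. Differences are Thy1.1- cells minus Thy1.1+ cells, and ratios are the former over the latter. In bulk RNA, fewer cells that express a gene and less transcript per cell cannot be told apart.

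The common gamma chain, encoded by Il2rg, is shared by the receptors for interleukins 2, 4, 7, 9, 15 and 21. Each receptor adds at least 1 further chain, the signalling chain among these binds Jak1, the gamma chain binds Jak3, and the kinases phosphorylate STAT factors. Treg cells are known for a high level of the interleukin-2 receptor alpha chain, CD25, and they depend on interleukin-2 made by other T cells.

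The largest differences among the 10 genes ran in opposite directions. Il2ra stood at 98.8 FPKM in Thy1.1- and 205 FPKM in Thy1.1+ cells, while Il9r stood at 21.8 FPKM and 5.96 FPKM. Il2ra was therefore lower and Il9r higher in Thy1.1- cells, and for neither gene did the counting intervals of the libraries overlap. These were the members past 2-fold: 1 lower, where 1.15% of the 12820 genes passing the filter were 2-fold lower, and 1 higher, where 1.93% were 2-fold higher. In all, 6 of the 10 were lower in Thy1.1- cells, against 44.9% of all genes, and with the upper quartiles of the libraries made equal 4 of the 10 were lower, against 17.0% of all genes. That scaling shifts every gene upward in Thy1.1- cells, whose library had 28107 genes above 0 against 25709. The median log2 difference was -0.20 over the 10 members and 0.03 over all genes.

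**Figure D1:**
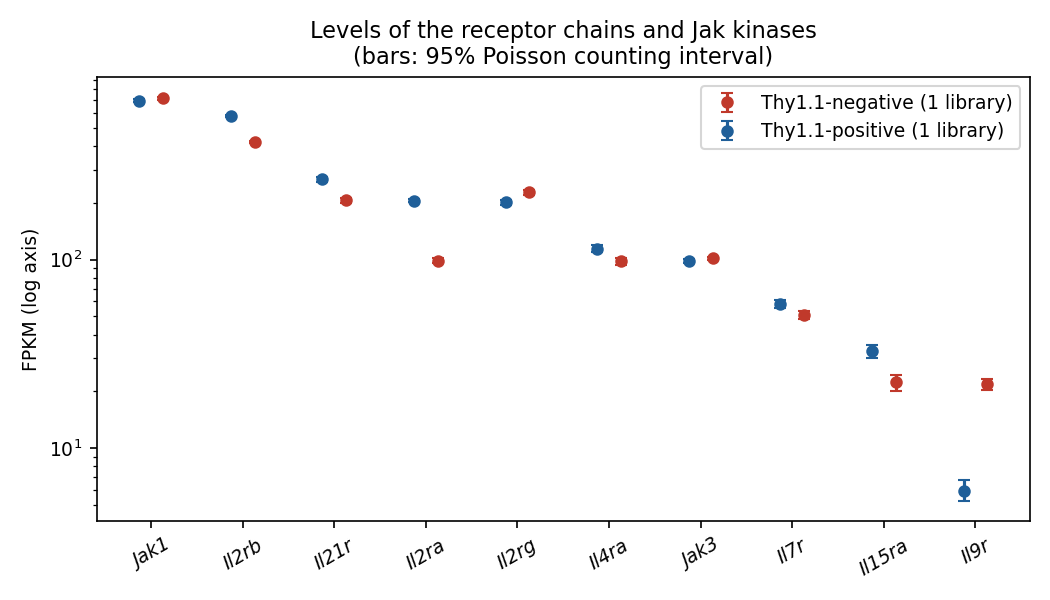
FPKM (log axis) of the 10 genes in each library, ordered by the Thy1.1+ level, with 95% Poisson counting intervals as bars. Il2ra is level with Il2rg in Thy1.1+ cells and with Il4ra and Jak3 in Thy1.1- cells, and Il9r is the member with the widest gap, 21.8 against 5.96 FPKM.

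The alpha chain of the interleukin-2 receptor raises the affinity of the receptor for interleukin-2 and does not signal itself. Its gene, Il2ra, had a ratio of 0.482 (0.466 to 0.499), from 4858 and 10113 reads. Its log2(FPKM + 1) difference of -1.05 lay close to the 2-fold rule, and 129 of the 12820 genes were as low or lower. With the libraries scaled to the same upper quartile the difference was -0.79, within 2-fold. Its ratio ranged from 0.470 to 0.576 across the 5 scalings.

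Il2rb encodes the beta chain, which carries the signal of both interleukin-2 and interleukin-15. It was at 419 FPKM in Thy1.1- cells and 575 FPKM in Thy1.1+ cells. That is a lower level in the former, with a ratio of 0.729 (0.715 to 0.744). The alpha chain was also lower relative to the beta chain: the quotient of Il2ra to Il2rb was 0.236 in Thy1.1- and 0.357 in Thy1.1+ cells, a ratio of 0.661 (0.635 to 0.687) that no library scaling can alter.

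Il15ra encodes the chain that binds interleukin-15 and presents it to neighbouring cells, and it is the closest relative of Il2ra in structure. It measured 22.3 FPKM in Thy1.1- and 32.6 FPKM in Thy1.1+ cells, from 417 and 611 reads. Its ratio, 0.685 (0.603 to 0.777), was the second lowest of the 10. Il2ra and Il15ra are neighbours on chromosome 2, 11977 bases apart in the RefSeq annotation of GRCm38.p6 with no protein-coding gene between them. The chains that raise affinity for interleukins 2 and 15 and the beta chain common to both were thus all lower in Thy1.1- cells, under all 5 scalings. The gamma chain, also common to both, was not.

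Il2rg went the other way. The common gamma chain gene stood at 228 FPKM in Thy1.1- cells and 202 FPKM in Thy1.1+ cells, with a ratio of 1.13 (1.08 to 1.18). Its ratio stayed above 1 under all 5 scalings and was 1.35 with equal upper quartiles. In the GENCODE M21 annotation, on another build than the mm9 named by the submitters, 728 exonic bases of Il2rg are shared with the gene model Gm20489 on the same strand. That model had 1 and 3 reads, and how reads in shared bases were counted is not given in the sources used here.

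Il7r encodes the interleukin-7 receptor alpha chain, CD127, which is typically low on Treg cells and high on naive and memory T cells. Its level was 51.1 FPKM in Thy1.1- and 58.3 FPKM in Thy1.1+ cells. The ratio was 0.877 (0.818 to 0.940) as deposited and 1.05 with the upper quartiles made equal, so its direction depends on the scaling. Crlf2, whose product pairs with this chain to bind thymic stromal lymphopoietin, was at 58.8 and 62.6 FPKM, with a counting interval (0.874 to 1.01) that spanned 1.

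Il4ra encodes the alpha chain of the interleukin-4 receptor, which also serves interleukin-13. It stood at 97.9 FPKM in Thy1.1- and 114 FPKM in Thy1.1+ cells, a ratio of 0.855 (0.809 to 0.904) that became 1.02 with equal upper quartiles. Il13ra1, the partner chain for interleukin-13, was under 1 FPKM in both libraries, at 0.741 and 0.579. Il13ra2, a decoy receptor, had 0 reads and 1 read. Il4ra shares 571 exonic bases with Gm44876, a gene model on the opposite strand, and the strand setting of the counts is not given in the sources used here.

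Il21r, the receptor chain for interleukin-21, lies beside Il4ra on chromosome 7, 23777 bases away with no protein-coding gene between them. It measured 206 FPKM in Thy1.1- and 266 FPKM in Thy1.1+ cells. The level was lower in the former by a ratio of 0.774 (0.740 to 0.810), and 0.925 with equal upper quartiles. Both neighbouring pairs, Il2ra with Il15ra and Il4ra with Il21r, were lower as deposited, although Il4ra was not under the upper-quartile scaling.

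Il9r encodes the receptor chain for interleukin-9, a cytokine known for its actions on mast cells and on helper T cell subsets. It had 903 reads in Thy1.1- and 248 reads in Thy1.1+ cells, a ratio of 3.65 (3.17 to 4.22). Only 54 of the 12820 genes had a difference as high or higher than its 1.71. Its level was above that of 61.8% of those genes in Thy1.1- cells and of 34.2% in Thy1.1+ cells. The ratio ranged from 3.56 to 4.37 across the 5 scalings. Of the 3 genes listed as markers of mast cells and group 2 innate lymphoid cells, 1 was higher in Thy1.1- cells, and they summed to 24.8 FPKM there and 21.9 FPKM in Thy1.1+ cells. Nearly all of that sum was Il1rl1, the interleukin-33 receptor, which part of the Treg cells also express, at 23.4 against 18.3 FPKM (ratio 1.28, 1.18 to 1.39). Kit was at 1.17 against 3.28 FPKM, and Cpa3, a mast cell protease, had 7 and 10 reads. The part of such cells in the Il9r difference was not tested.

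Jak1 and Jak3 encode the kinases bound to the partner chain and to the gamma chain. Jak1 stood at 718 FPKM in Thy1.1- and 697 FPKM in Thy1.1+ cells, and Jak3 at 101 and 98.5 FPKM. Their ratios were alike, 1.03 (1.01 to 1.05) for Jak1 and 1.03 (0.995 to 1.07) for Jak3, and the interval of Jak3 included 1. With equal upper quartiles both were 1.23. Jak3 shares 404 exonic bases with Insl3 on the same strand, which stood at 6.06 and 6.90 FPKM.

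**Figure D2:**
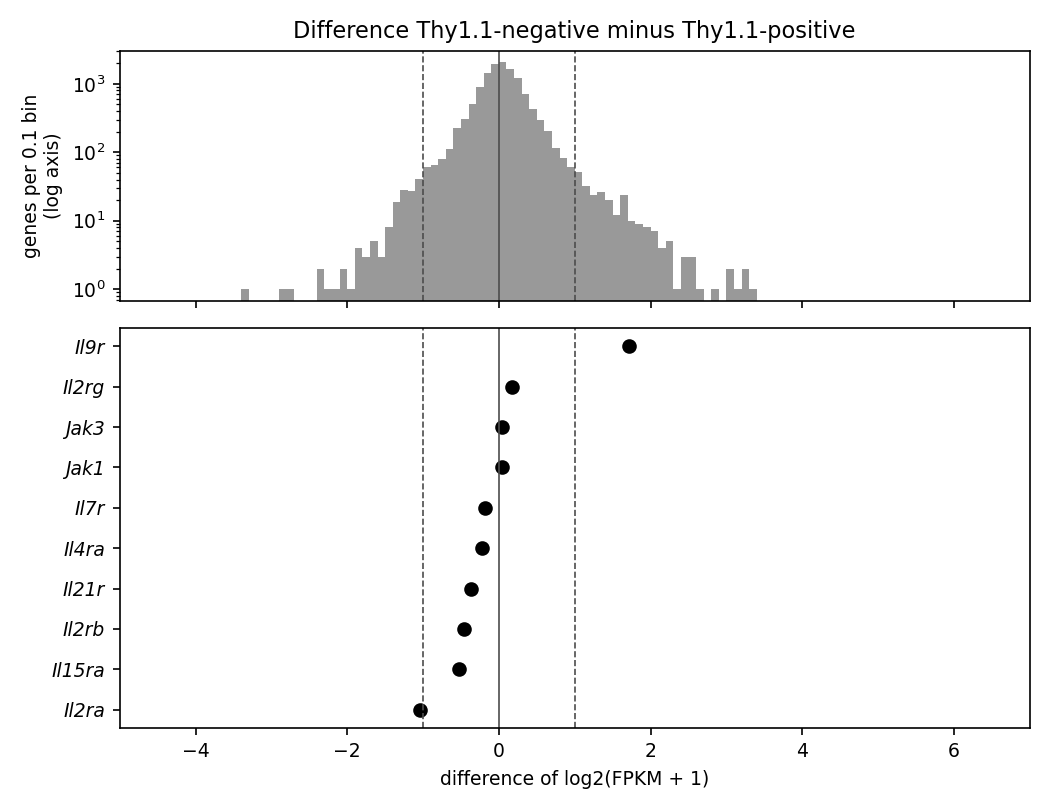
Upper panel, number of genes (log axis) per 0.1 bin of the log2(FPKM + 1) difference among the 12820 genes with a mean of at least 1 FPKM; lower panel, the same difference for the 10 genes, with dashed lines at 2-fold. Il2ra at -1.05 and Il9r at 1.71 lie past the lines and the other 8 lie between -0.53 and 0.18.

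Relative to the shared gamma chain, 6 of the 7 other receptor chains were lower in Thy1.1- cells. These quotients come from within a library, so their ratio between libraries does not depend on how the libraries are scaled. Il2ra was 1.02 times Il2rg in Thy1.1+ cells and 0.434 times in Thy1.1- cells, so the second quotient was 0.426 times the first (0.404 to 0.451). The same figure was 0.606 (0.531 to 0.691) for Il15ra, 0.645 (0.615 to 0.676) for Il2rb and 0.685 (0.643 to 0.729) for Il21r. It was 0.756 for Il4ra and 0.776 for Il7r, with intervals below 1 (0.705 to 0.812 and 0.715 to 0.842). Il9r was the exception, at 0.0296 times Il2rg in the Thy1.1+ and 0.0956 times in Thy1.1- cells, a ratio of 3.23 (2.79 to 3.74).

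The 7 chains summed to 6.24 times the Il2rg level in Thy1.1+ cells and 4.03 times in Thy1.1- cells. With Il2rb in place of Il2rg as the denominator, the ratios of Il4ra, Il7r and Il21r were 1.17, 1.20 and 1.06, so these chains were relatively higher, and the interval of Il15ra, 0.828 to 1.07, included 1. Il2ra was lower and Il9r higher against either chain. Of the summed FPKM of the 8 receptor chains, Il2ra made up 8.63% in Thy1.1- and 14.0% in Thy1.1+ cells. The share of Il9r was 1.90% and 0.409%. These sums and shares, and their change between libraries, rest on the gene lengths the authors divided by.

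**Figure D3:**
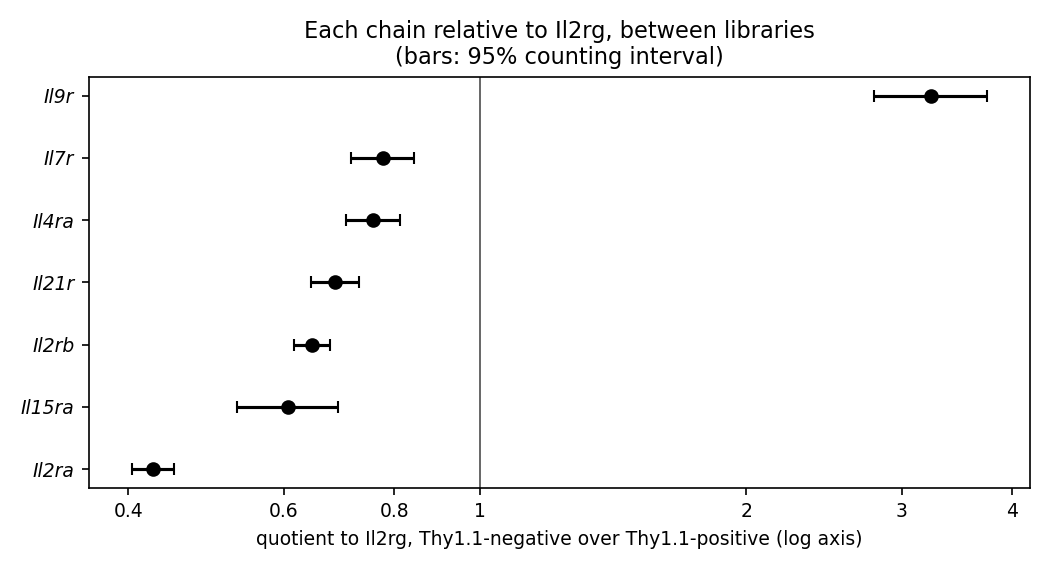
Ratio of each chain's quotient to Il2rg, Thy1.1- over Thy1.1+ (log axis), with 95% counting intervals; the line marks equal quotients. Il9r at 3.23 lies right of the line and the other 6 chains lie left of it, from 0.426 for Il2ra to 0.776 for Il7r.

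The order of the levels also differed. In Thy1.1+ cells the order was Jak1, Il2rb, Il21r, Il2ra, Il2rg, Il4ra, Jak3, Il7r, Il15ra and Il9r, and the neighbours whose counting intervals overlapped were Il2ra (201 to 209 FPKM) and Il2rg (195 to 208 FPKM). In Thy1.1- cells Il2rg ranked above Il21r, and Il2ra below Jak3. There the intervals of Jak3, Il2ra and Il4ra overlapped, at 101, 98.8 and 97.9 FPKM, as did those of Il15ra and Il9r. Such an order rests on the gene length the authors divided by. For Jak1 that length was 1285 bases, the mean over its annotated transcripts, while its annotated exons together cover 7227 bases. Divided by the latter length, Jak1 would stand at 128 and Il2rg at 99.3 FPKM in Thy1.1- cells, in place of 718 and 228. Ratios of a single gene between libraries do not depend on it.

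The sequence upstream of the annotated start is shown for the members that differed most in each direction. Both are the 250 bases before a RefSeq transcript start in GRCm38.p6, given 5′ to 3′ on the strand of the gene. The Il2ra window is chr2:11642542-11642791 on the plus strand, and the Il9r window is chr11:32200280-32200529 on the minus strand. Capitals mark a match to the kappaB motif, the site type of NF-kB factors.
Il2ra: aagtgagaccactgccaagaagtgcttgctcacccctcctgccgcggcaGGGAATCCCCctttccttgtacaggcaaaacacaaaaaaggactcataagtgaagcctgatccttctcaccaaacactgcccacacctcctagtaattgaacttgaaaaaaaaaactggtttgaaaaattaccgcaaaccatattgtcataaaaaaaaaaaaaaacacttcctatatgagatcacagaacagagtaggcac
Il9r: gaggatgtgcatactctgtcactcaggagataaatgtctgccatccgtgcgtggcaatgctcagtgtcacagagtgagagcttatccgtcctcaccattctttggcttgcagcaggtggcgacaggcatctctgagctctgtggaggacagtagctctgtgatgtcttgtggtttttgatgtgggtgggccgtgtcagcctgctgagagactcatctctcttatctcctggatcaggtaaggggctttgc

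Both strands of these windows were searched for TTCNNNGAA, the STAT motif, the STAT6 form of it with 1 more base in its spacer, GTAAACA, a forkhead motif, and the kappaB motif, which was added after the Il2ra sequence was seen. The Il2ra window held the kappaB match alone, beginning 201 bases before the start, and 4.77% of all 32851 windows of this length held one. The Il9r window held no match to any of the 4 motifs. A window was available for 9 of the 10 members. Of the others, that of Il7r held TTCAGGGAA, a STAT motif match that reads on both strands, 142 bases before the start; 7.02% of windows held this motif. The window of Il21r held the forkhead motif, found in 3.17% of windows. No window of a member held the wider STAT6 form, found in 5.85% of windows.

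The cytokines that bind these receptors were barely detected. Il2 had 3 and 1 reads, Il4 had 5 and 3, Il7 had 9 and 5 and Il15 had 7 and 1 in Thy1.1- and Thy1.1+ cells, in that order. Il9 had 2 and 0 reads, at or under a floor of 3 counts in both, so no fold is given. Il21, made mainly by follicular helper T cells, stood apart with 54 reads against 1, or 1.62 against 0.0299 FPKM. Its ratio of 54.2 has a wide interval, 9.32 to 2179. None of the 6 passed the filter on low values.

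Among the STAT factors that these receptors activate, the 4 described here were lower in Thy1.1- cells as deposited and none passed 2-fold. Of all genes, 44.9% were lower. Stat5a, a main effector of interleukin-2, stood at 145 FPKM against 225, and its close relative Stat5b at 156 against 181. The level of Stat5a was thus lower by a ratio of 0.645 (0.626 to 0.666), and that of Stat5b by 0.859 (0.837 to 0.882). Stat3, which signals for interleukin-21, had a ratio of 0.667, and Stat6, which signals for interleukin-4, 0.992. The median difference of the list, -0.22, became 0.04 with equal upper quartiles, where Stat5b and Stat6 turned positive. That scaling also moved the median of all genes, from 0.03 to 0.26. Relative to all genes, the median of the list lay at -0.25 as deposited and -0.22 under that scaling.

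Of 14 inhibitors of the receptors and their kinases, 9 were lower and 5 higher, none past 2-fold, while 44.9% of all genes were lower. Their median of -0.11 turned to 0.13 with equal upper quartiles, where that of all genes was 0.26. It lay at -0.13 relative to all genes both as deposited and under that scaling. Cish and Socs2, induced by STAT5 and acting back on the receptors, were at the low end with ratios of 0.641 (0.609 to 0.674) and 0.684 (0.604 to 0.774). The phosphatases Ptprc, which encodes CD45, and Ptpn6 were at the high end with ratios of 1.16 and 1.13. Of 27 measured adaptors and kinases downstream, 17 were higher and 10 lower, none past 2-fold. Among all 12820 genes passing the filter 7070 were higher and 5750 lower. The median of these adaptors and kinases was 0.12, or 0.38 with equal upper quartiles, and relative to all genes 0.091 and 0.12. Akt1, a kinase downstream of phosphoinositide 3-kinase, was near the high end with a ratio of 1.30. Irs2, an adaptor used by the interleukin-4 receptor, had the lowest, at 64.2 against 107 FPKM (interval of the ratio 0.578 to 0.622), followed by Pik3r1, a regulatory subunit of phosphoinositide 3-kinase, at 0.799.

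Genes known as STAT5 targets numbered 30, of which 19 were lower and 11 higher, while 44.9% of all genes were lower. Their median of -0.28 was -0.025 with equal upper quartiles, where that of all genes was 0.26. Relative to all genes it lay at -0.31 as deposited and -0.28 under that scaling. Without Il2ra and Il2rb, which also belong to it, the list had 17 of 28 lower and a median of -0.17. Past 2-fold were Il2ra on the low side and, on the high side, Gzmb, the protease granzyme B, at 5.53-fold (4.04 to 7.72), and Prdm1, a regulator of effector differentiation, at 2.27-fold (2.02 to 2.55). Over all genes, 1.15% were 2-fold lower and 1.93% 2-fold higher. Next to Il2ra at the low end was Tnfrsf9, a costimulatory receptor, at 146 against 258 FPKM. The low members included feedback inhibitors and surface receptors, but also Foxp3 at a ratio of 0.670, and the surface receptor Il1rl1 was higher at 1.28. The list was not split by function.

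Receptors outside the gamma chain family, with Jak2 and Tyk2, were split, with 10 of 20 measured genes higher, 10 lower and a median of 0.02, whose sign changed with the filter and the scaling. For this list and the next, the shares over all genes were 44.9% lower and 1.93% 2-fold higher. Il1r2, a decoy receptor for interleukin-1, was past 2-fold at 42.5 against 17.5 FPKM (ratio 2.44, 2.18 to 2.73), and Il18rap, a chain of the interleukin-18 receptor, was next at 1.62. The lowest were Ifngr2 and Ifngr1, the chains of the interferon-gamma receptor, at 0.685 and 0.753. Il7r is a known target of Foxo1, and of 10 genes in that list, Foxo1 included, 7 were lower and none passed 2-fold. Their median of -0.14 turned to 0.12 with equal upper quartiles, where that of all genes was 0.26. Relative to all genes it lay at -0.17 as deposited and -0.14 under that scaling. Without Il7r itself, 6 of 9 were lower and the median was -0.0875. Ccr7, a lymph node homing receptor, was lowest at a ratio of 0.520, Bcl2l11 was next at 0.758, and Tcf7 and S1pr1 were highest at 1.23 and 1.11.

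**Figure D4:**
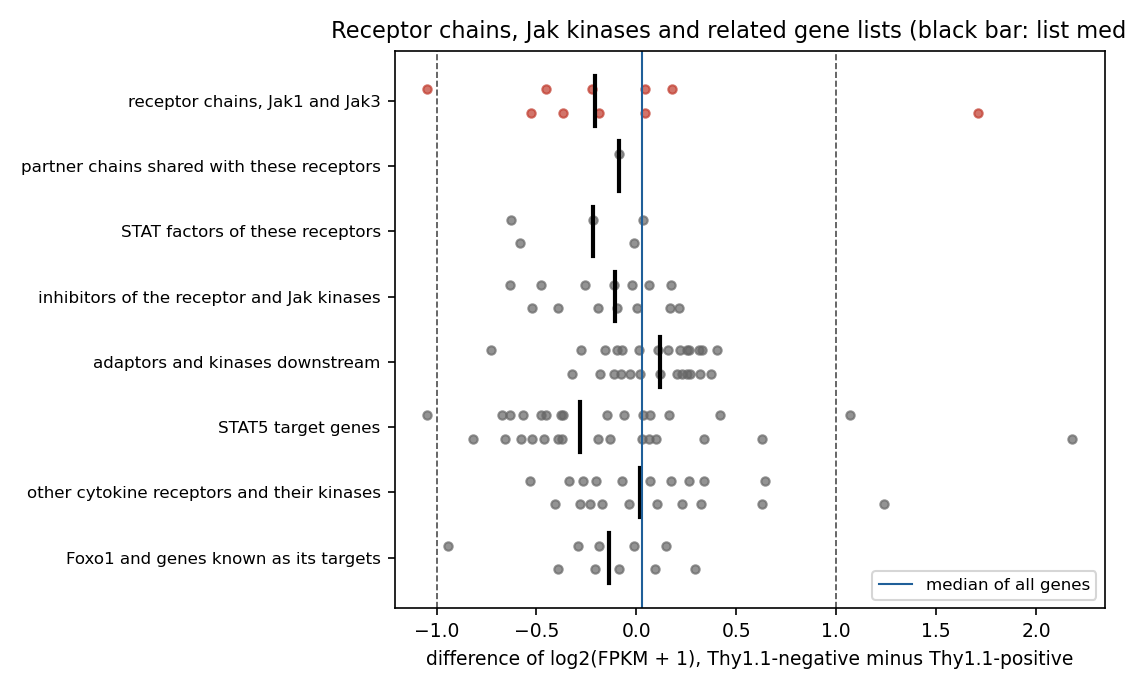
Difference of log2(FPKM + 1), Thy1.1- minus Thy1.1+, for the 10 genes and for measured genes of each related list; points are genes, black bars list medians, the blue line the median of all genes (0.03) and dashed lines 2-fold. The medians run from -0.28 for STAT5 targets to 0.12 for adaptors and kinases downstream.

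The genes most like Il2ra were sought by distance in the plane of log2(FPKM + 1) of both libraries, which is a weak measure with 1 value per population. The nearest was Ecm1, a secreted matrix protein, at 97.5 against 241 FPKM and a distance of 0.24. Zfp36l1, an RNA-binding protein, Ccr8, a chemokine receptor, Rpl12, a ribosomal protein, and Rgs16, a regulator of G protein signalling, followed at distances of 0.29 to 0.39.

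Markers of the sorted cells were present in both libraries. Foxp3 stood at 158 FPKM in Thy1.1- and 237 FPKM in Thy1.1+ cells, Cd4 at 471 and 327, Cd3e at 292 and 248 and Ptprc at 670 and 577. Each of the 7 T cell markers had its higher value in Thy1.1- cells (sum 3240 against 2492 FPKM), and 6 of 7 Treg markers were lower there as deposited, of which Ikzf2 and Nrp1 were not under the upper-quartile scaling (sum 1927 against 2197 FPKM). Of all genes passing the filter, 44.9% were lower in Thy1.1- cells as deposited. All 6 proliferation genes were higher in Thy1.1- cells, with a summed level of 146 against 22.6 FPKM, and their part in the receptor differences was not tested. Of 6 B cell markers 5 were higher there (sum 14.3 against 9.12 FPKM), while Ms4a1, which encodes CD20, had 5 and 4 reads. All 6 myeloid markers were at least as high there (sum 5.72 against 1.08 FPKM), of which Itgam gave 4.17 and 0.272 FPKM and the others stayed under 1. Csf1r had 9 and 9 reads and Adgre1 6 and 6. Among the myeloid markers only Itgam had a ratio interval (9.10 to 27.8) that did not span 1. The part of these cell types in the result was not tested. The sort by Thy1.1 was not checked here.

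**Figure D5:**
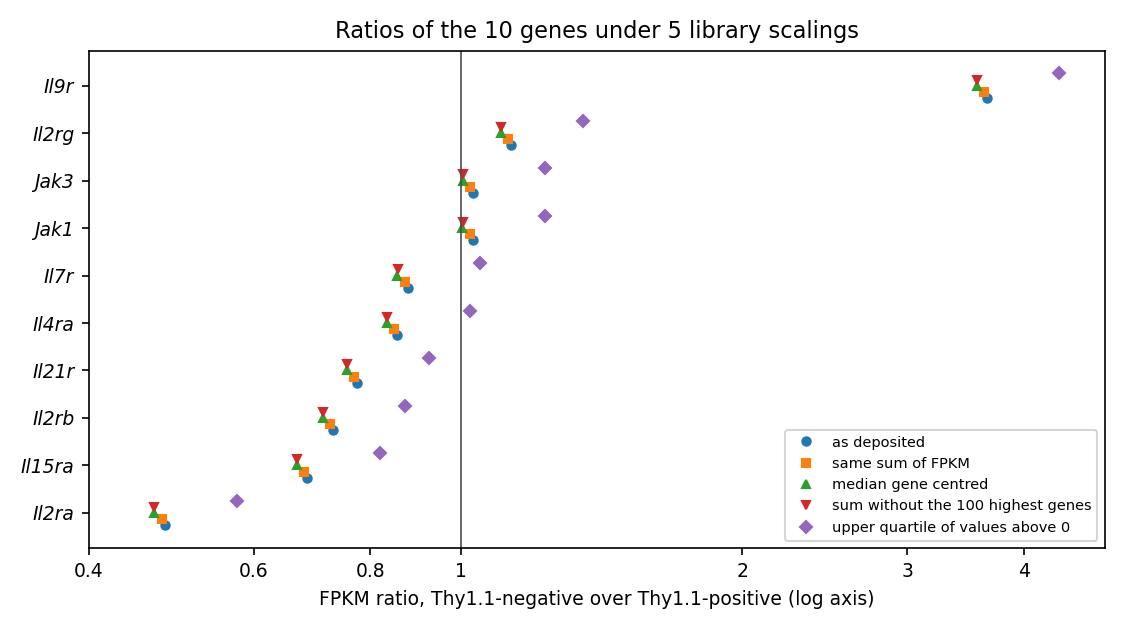
FPKM ratio of each of the 10 genes, Thy1.1- over Thy1.1+ (log axis), under the deposited values and 4 rescalings, marked by symbol. A rescaling multiplies all ratios by 1 factor and so cannot alter their order; Il2ra spans 0.470 to 0.576 and Il9r 3.56 to 4.37, while Il4ra and Il7r cross 1 with equal upper quartiles (1.02 and 1.05).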

How the data were processed

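FPKM values, as the authors deposited them, fill 1 column per population with a row for each Ensembl gene. Tools named in the submitters' processing notes are TopHat2 2.0.12, Bowtie2 2.2.3 and HTSeq 0.6.1, with the build mm9. Their settings, annotation and strand were not given in the sources used here. Per the labels' protocols, libraries were made from 3 ug of total RNA. Symbols for 40254 of 41592 IDs came from the reference gene table, and lengths and overlaps from GENCODE M21.

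FPKM is not a count, so no count model was used. Reads were recovered: of 23442 genes with values above 0 in each column, 99.99% had a quotient of whole numbers, after 1 common factor, within a tolerance of 1e-11. The totals are those that give the annotated length for 837 of 1522 single-transcript genes. Each gene was given the fewest reads that make its length whole, so intervals are, if anything, too wide. Ratio intervals are exact Clopper-Pearson, level intervals exact Poisson, and quotient intervals a normal approximation on the log odds ratio (scipy 1.17.1, Python 3.11.15). The recovery of totals was checked on simulated data with known gene lengths. Recovered reads were checked there only to divide the true reads. The 2-fold calls were checked there only on genes raised 4-fold and on unchanged genes. Calls near 2-fold or on the low side, and the intervals, were not checked.

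A pseudocount of 1 understates the change of low genes. Named were all 10 members, each list's genes past 2-fold with its 2 highest and 2 lowest (lists of up to 6 in full), and the 5 genes nearest to Il2ra. Members and lists were chosen with earlier results of these data known. Alternatives were pseudocounts, filters, fold rules and scalings. Protein sequences and the Il2rb promoter were not analysed here, and some genes of these lists are not reported here.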

Additional observations from a re-analysis of the deposited data

How the results depend on the processing

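No paired analysis was possible because each population has 1 library, and for the same reason no library could be left out. The counts of members past 2-fold, 1 lower and 1 higher, were the same with pseudocounts of 0.1 and 5, without a filter, at a mean FPKM of at least 5, at 1.5-fold and under 3 of 4 rescalings. With equal upper quartiles 0 members were 2-fold lower, and at 4-fold 0 were lower and 0 higher. That scaling multiplies the Thy1.1- values 1.19-fold relative to the others and moved the median of all genes from 0.03 to 0.26. It turned the median of the members to 0.048, of the partner chain Crlf2 to 0.16, of STAT factors to 0.038, of inhibitors to 0.13 and of the Foxo1 list to 0.12. Each of these stayed below the median of all genes, with Crlf2 at -0.096, STAT factors at -0.22, inhibitors at -0.13 and the Foxo1 list at -0.14 relative to it. The members' median lay -0.23 from that of all genes as deposited and -0.21 with equal upper quartiles, where 4 of 10 members were lower, against 17.0% of all genes. The median of other cytokine receptors was -0.025 without a filter, -0.0185 centred on the median gene and -0.0184 without the 100 highest genes. The median of all genes was -0.0032 and -0.0031 in the latter pair. Centring on the median gene puts it near 0 by construction, while the scaling without the 100 highest genes only makes sums equal. With Il2rb as the denominator, the changes of Il4ra, Il7r and Il21r turned to 1.17, 1.20 and 1.06.

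Over all genes, 148 were 2-fold lower and 247 higher. These counts were 293 and 402 with a pseudocount of 0.1, 19 and 72 with 5, 60 and 107 at a mean FPKM of at least 5, 80 and 409 with equal upper quartiles, 493 and 745 at 1.5-fold and 9 and 31 at 4-fold. Intervals with other library totals were not run, because whole gene lengths fix the totals. Depth limits low genes such as the cytokines, and variation between animals was not measured.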
